A study of Mus musculus with 6 samples.

Results

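The 34 genes described here belong to the hypoxia response and to glycolysis, and they were chosen by gene symbol and not by their measured values. They encode 3 subunits of the hypoxia-inducible factors, 4 proteins that control those factors, 2 glucose transporters, 10 genes of upper and 5 of lower glycolysis, 2 lactate dehydrogenases, 3 proteins of pyruvate control, 2 lactate transporters and 3 hypoxia targets. All 34 were among the 24062 genes in the count tables. Of these, 31 passed the filter on low counts that left 12688 genes for testing, and Eno1, Eno2 and Adm did not. RNA came from cells of the aorta-gonad-mesonephros (AGM) region of embryonic day 10.5 mouse embryos of strain C57BL/6JOlaHsd, in which hematopoietic cells emerge from the aortic endothelium. All embryos carried the Gata2Venus reporter in the heterozygous state (G2V/+), which places Venus behind an internal ribosome entry site in the Gata2 gene, and no treatment or other allele is named. All cells were sorted as CD31+ckit+, and the fractions differed by gate alone, with intermediate Venus in CD31+ckit+Vmed cells (labelled G2Vi) and high Venus in CD31+ckit+Vhigh cells (labelled G2Vh). Gata2 itself, the gene that carries the reporter, had 52.9, 28.6 and 70.5 CPM (counts-per-million of the library) in Vmed replicates 1, 2 and 3 and 42.8, 72.7 and 145 CPM in the Vhigh replicates. The fractions overlapped in Gata2 RNA, and Vhigh replicate 1 lay below Vmed replicates 1 and 3, against the order of the gates. Each fraction has 3 libraries, numbered 1 to 3, and neither the number of cells and embryos in a library nor the meaning of a shared number is given in the sources used here.

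Glycolysis breaks glucose down to pyruvate in the cytosol, and pyruvate then becomes either lactate, which leaves the cell with a proton, or acetyl-CoA in the mitochondrion. When oxygen is plentiful, prolyl hydroxylases mark the alpha subunits of the hypoxia-inducible factors for destruction through the von Hippel-Lindau protein. When oxygen is scarce the alpha subunits persist, pair with Arnt and raise the transcription of glucose transporters, glycolytic enzymes and Vegfa. Hematopoietic stem cells are known for their reliance on glycolysis, and hypoxia-inducible factors take part in the emergence of blood from endothelium.

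None of the 31 tested genes differed between Vmed and Vhigh after adjustment over all genes. The quasi-likelihood test of edgeR called 0 of the 31, against 0 of 12688 genes overall (0%). At an unadjusted p under 0.05 it gave 0 of the 31, against 259 genes overall (2.04%). The likelihood ratio test of edgeR and DESeq2 also called 0 of the 31, against 0.166% and 0.409% of all genes tested. Hk2, a hexokinase, and Pdha1, a subunit of pyruvate dehydrogenase, were the 2 members for which all 3 Vhigh libraries lay above all 3 Vmed libraries. Such a complete separation was found for 8.94% of all tested genes, 3.64% with Vhigh higher and 5.3% with Vhigh lower, so that the share of 6.45% of the members was not above the background. Without Vhigh replicate 1, the library whose Gata2 level ran against its gate, 0 members were called and 4 were separate (Hk1, Hk2, Pdha1 and Vhl), against 17.1% of all genes then tested. The members' median log2 fold change, Vhigh over Vmed, was -0.04, beside a median of -0.02 over all tested genes, with 15 members above and 16 below 0. Across the fractions, 13 of the 31 were higher in both libraries of replicate 3 than in the 4 others (41.9%, against 17% of all tested genes).

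The libraries held 8296831 to 12035206 counts on genes, and a count of 0 allows up to 3 counts, or 0.243 to 0.361 CPM. CPM are scaled here by the TMM normalization factors, and these limits cover counting error only. Between 10427 and 18460 genes had a count, the lowest number in Vhigh replicate 1 and the highest in Vhigh replicate 2. The libraries of replicate 3 stood apart from the others, with 10.5% (Vmed) and 7.47% (Vhigh) of gene counts on the ribosomal RNA precursor Rn45s, against 0.887% to 1.53% in the other 4. Alignments outside annotated features were also fewest there, with 7.996% and 7.09% of all alignments tallied against 16.5% to 35.6% in the other 4. Because these are bulk samples, fewer cells of a type and less RNA per cell cannot be told apart in any value given below.

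**Figure D1:**
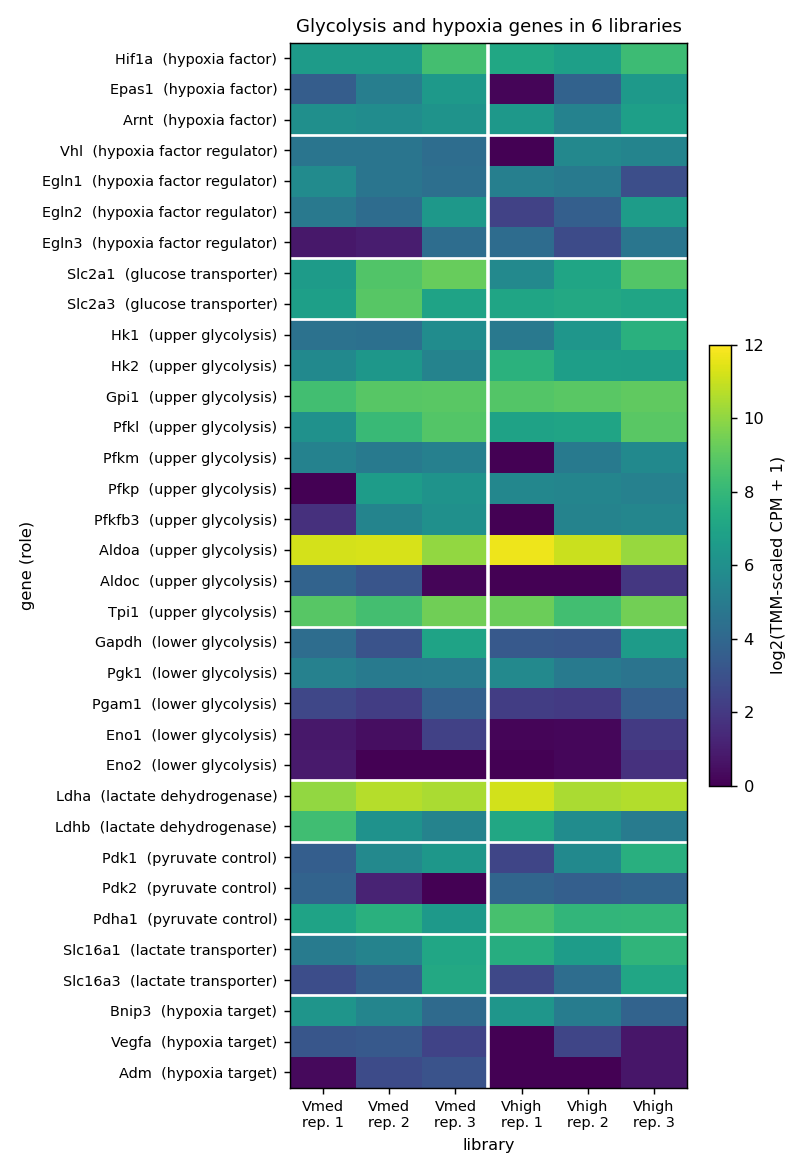
Level of each of the 34 genes in the 6 libraries as log2(TMM-scaled CPM + 1), genes in rows grouped by role (white lines) and libraries in columns, Vmed left and Vhigh right. Aldoa and Ldha were the brightest rows in all 6 libraries, while Gapdh, Slc16a3 and Epas1 were bright mainly in the columns of replicate 3.

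Hif1a, the widely expressed alpha subunit of the hypoxia-inducible factors, lies on chromosome 12 of GRCm38 from 73901375 to 73947530. It had 95.2, 94.4 and 339.9 CPM in Vmed replicates 1, 2 and 3 and 143, 110.1 and 299 CPM in the Vhigh replicates. The libraries of replicate 3 were about level with each other and above the other 4, and the fractions overlapped (log2 fold change 0.06, SE 0.65). Epas1, the alpha subunit best known from endothelium, had 10.5, 34.6 and 85.0 CPM in Vmed and 0.10, 12.7 and 86.5 CPM in Vhigh. Vhigh replicate 1 held a single Epas1 count, while the replicate 3 libraries again gave the highest values. Arnt, the partner of both, ranged from 56.3 to 71.6 CPM in Vmed and from 38.9 to 107 CPM in Vhigh (log2 fold change 0.27, SE 0.67). The Arnt values were the most even of these 3 genes.

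Among the genes that keep the alpha subunits low, Vhl, the substrate receptor of the ubiquitin ligase, had 24.3, 24.7 and 18.7 CPM in Vmed and 0, 47.8 and 41.7 CPM in Vhigh. A count of 0 in Vhigh replicate 1 allows up to 0.308 CPM, so that the Vhigh values of Vhl lay on either side of the Vmed values. Egln1, the main oxygen-sensing prolyl hydroxylase, had 54.1, 24.2 and 19.7 CPM in Vmed and 34.8, 28.9 and 6.29 CPM in Vhigh. Its relative Egln2 had 28.2, 18.1 and 84.2 CPM in Vmed and 4.20, 11.4 and 98.5 CPM in Vhigh. Egln1 was thus lowest and Egln2 highest in the libraries of replicate 3. Egln3, the hydroxylase most strongly induced by hypoxia, had 0.72, 0.94 and 18.2 CPM in Vmed and 17.7, 5.68 and 25.5 CPM in Vhigh. It was higher in Vhigh in 3 of 3 same-numbered pairs (log2 fold change 1.29, SE 1.73), but its fractions overlapped.

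Slc2a1, the basal glucose transporter, lies on chromosome 4 from 119108711 to 119137983. It had 96.0, 422 and 597 CPM in Vmed and 48.9, 134 and 442 CPM in Vhigh, and was lower in Vhigh in 3 of 3 same-numbered pairs. Within each fraction the values spanned a wider range than the distance between the fraction means (372 and 208 CPM). Its log2 fold change was -0.83 (SE 0.83), and -1.02 (SE 0.30) when the replicate number entered the model as a block, with an unadjusted p = 0.018 and an adjusted p = 0.987 from the quasi-likelihood test of edgeR. Without Vhigh replicate 1 the log2 fold change of Slc2a1 was -0.36. Slc2a3, a transporter of high glucose affinity, had 109.8, 469 and 125 CPM in Vmed and 131, 149 and 130.1 CPM in Vhigh. Vmed replicate 2 was 1 high value among 6, and without it the log2 fold change turned from -0.78 to 0.22.

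Hexokinases trap glucose in the cell as glucose 6-phosphate. Hk1 and Hk2 had the largest positive fold changes among the tested members of upper and lower glycolysis. Hk2, the isoform of growing and hypoxic cells, lies on chromosome 6 from 82725025 to 82774454. It had 49.99, 80.6 and 40.6 CPM in Vmed (57.1 ± 20.9, SD, n = 3) and 204, 106 and 101 CPM in Vhigh (137 ± 58, SD, n = 3). The lowest Vhigh library lay above the highest Vmed library, so the fractions did not overlap. The log2 fold change of Hk2 was 1.26 (SE 0.60, unadjusted p = 0.066 and adjusted p = 0.9998, quasi-likelihood test of edgeR), and the exact two-sided permutation test gave p = 0.1, the smallest value that 3 against 3 libraries allow. With the block the unadjusted p was 0.047 and the adjusted p 0.987 in the same edgeR test. Without Vhigh replicate 1, which had the top value, the log2 fold change of Hk2 was 0.85. Hk1, the housekeeping isoform, had 22.2, 20.5 and 56.4 CPM in Vmed and 27.9, 77.2 and 197 CPM in Vhigh. Hk1 had the largest positive fold change of the members without the block (log2 1.61, SE 0.85), and Vmed replicate 3 kept its fractions overlapping.

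Gpi1, which turns glucose 6-phosphate into fructose 6-phosphate, was among the steadiest members, with 329 to 494 CPM in Vmed and 441 to 542 CPM in Vhigh (log2 fold change 0.18, SE 0.41). Phosphofructokinase, the committed step of glycolysis, is built from liver, muscle and platelet subunits. The liver subunit Pfkl had 66.4, 279.9 and 438 CPM in Vmed and 119, 126 and 481 CPM in Vhigh, highest in replicate 3. The muscle subunit Pfkm had 29.9 to 38.7 CPM in Vmed and 0, 28.5 and 51.5 CPM in Vhigh. The platelet subunit Pfkp had 0, 99.4 and 71.8 CPM in Vmed and 37.6 to 45.7 CPM in Vhigh. Pfkm in Vhigh replicate 1 and Pfkp in Vmed replicate 1 were at a count of 0, which allows up to 0.308 and 0.361 CPM. In the other 5 libraries Pfkm had 255 to 606 and Pfkp 443 to 848 counts. Pfkfb3, which makes the activator of phosphofructokinase, had 2.16, 41.2 and 65.0 CPM in Vmed and 0, 40.7 and 44.4 CPM in Vhigh, with both replicate 1 libraries lowest.

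Per exon length, the aldolase gene Aldoa had the highest counted level of the members, with a median over the 6 libraries of 776 CPM per kilobase of exon (RPKM). Ldha followed at 450.1 RPKM and Tpi1, the triosephosphate isomerase, at 201 RPKM. The libraries of Aldoa (362 to 1148 RPKM) and Ldha (319 to 694 RPKM) overlapped in this order, and all 6 of Tpi1 (118 to 252 RPKM) lay below those of Ldha. Aldoa had 2389, 2476 and 1053 CPM in Vmed and 3342, 2128 and 1144 CPM in Vhigh. Both libraries of replicate 3 held the lowest values, and the fold change between fractions was small (log2 0.16, SE 0.54). Aldoc, a minor aldolase outside the nervous system, had 13.1, 7.97 and 0.11 CPM in Vmed and 0, 0 and 2.89 CPM in Vhigh. It had the most negative fold change of the members (log2 -2.86), with an SE of 2.54. Its counts were 109, 68 and 1 in Vmed and 0, 0 and 34 in Vhigh. Tpi1 had 467, 338 and 675 CPM in Vmed and 637, 325 and 694 CPM in Vhigh, with close values in the same-numbered libraries of replicates 2 and 3.

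The members of lower glycolysis, which act after triosephosphate isomerase, were counted at far lower levels than Tpi1. Gapdh, glyceraldehyde 3-phosphate dehydrogenase, had a median of 3.36 RPKM, Pgk1, phosphoglycerate kinase, 13.5 RPKM, Pgam1, phosphoglycerate mutase, 2.12 RPKM and Eno1, enolase, 0.0997 RPKM. These genes have many near-identical copies in the mouse genome, and reads of 50 bases that align to several places were tallied by the authors apart from the gene counts (41.3% to 57.7% of all alignments tallied per library). Every 50-base window of 1 transcript per member was therefore compared with the annotated transcripts of other loci, allowing up to 2 mismatches. Of the Gapdh windows, 82.5% were found exactly, and 85.0% with up to 2 mismatches, in 387 other genes of which 337 were annotated as pseudogenes. The exact share was 72.2% for Eno1, 68.1% for Pgk1, 48.9% for Bnip3 and 41.6% for Pgam1. For Ldhb, Gpi1, Ldha, Aldoa and Tpi1 the exact share lay between 7.51% and 27.0%, and for each of the other 24 members at or below 0.654%. With up to 2 mismatches the share was 66.9% for Ldhb, 58.55% for Aldoa, 50.7% for Ldha, 50.4% for Gpi1 and 31.3% for Tpi1. It was 82.3% for Bnip3, 68.4% for Pgk1, 41.9% for Pgam1 and 85.5% for Eno1, with 84.2% of the Eno1 windows found in Eno1b. Among the other 24 members it was at most 6.18% (Pdha1). A window each of Gapdh, Pgk1, Aldoa and Ldha is shown to give an example of such a near-identical copy for members with low and with high counted levels. For each gene, the first window within a coding exon that matched the most other genes was taken, so these windows are not typical ones. Each window is followed by a processed pseudogene copy, picked for the most mismatches within the limit of 2, in which capitals mark the bases that differ.
Gapdh, chr6:125162906-125162955, minus strand: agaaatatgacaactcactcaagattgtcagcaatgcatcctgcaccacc
Gm12864, copy of the Gapdh window: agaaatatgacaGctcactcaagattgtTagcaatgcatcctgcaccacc
Pgk1, chrX:106202527-106202576, plus strand: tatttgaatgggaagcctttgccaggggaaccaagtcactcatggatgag
Gm21007, copy of the Pgk1 window: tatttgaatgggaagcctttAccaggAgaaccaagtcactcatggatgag
Aldoa, chr7:126796250-126796299, minus strand: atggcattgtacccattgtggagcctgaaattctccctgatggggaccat
Gm5276, copy of the Aldoa window: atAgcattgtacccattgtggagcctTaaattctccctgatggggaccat
Ldha, chr7:46854054-46854103, plus strand: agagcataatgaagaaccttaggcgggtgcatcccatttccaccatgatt
Gm11814, copy of the Ldha window: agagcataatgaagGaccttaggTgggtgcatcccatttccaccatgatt

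All 4 windows lie in coding exons of GRCm38. Counted from 1 at the 5′ end of the window, the Gapdh copy differs by A13G and C29T, the Pgk1 copy by G21A and G27A, the Aldoa copy by G3A and G27T and the Ldha copy by A15G and C24T. The Gapdh window matched 179 other genes, 80 of them exactly, whereas the Pgk1, Aldoa and Ldha windows matched 6, 7 and 15 other genes, of which 3, 1 and 3 exactly. Copies outside the annotation were not searched. The part that shared windows play in the levels of these genes was not tested. Levels of Gapdh, Eno1, Pgk1, Pgam1, Bnip3, Ldhb, Aldoa, Ldha, Gpi1 and Tpi1 are uncertain for this reason. Pkm, the pyruvate kinase of the last step and not a member, had 1066 to 2228 CPM in Vmed and 1006 to 1258 CPM in Vhigh, and its median of 238 RPKM was above that of Tpi1.

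**Figure D2:**
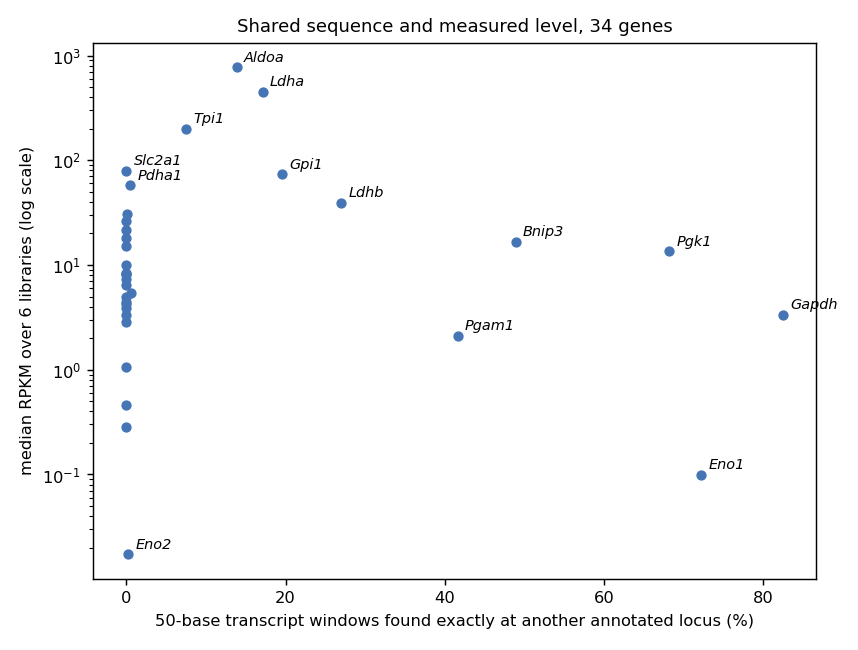
Median RPKM over the 6 libraries (log scale) against the share of 50-base transcript windows found exactly at another annotated locus (%), 1 point for each of the 34 genes, with labels where the share is above 5% and for 3 others. Gapdh, Eno1 and Pgk1 had the largest shares and medians of 3.36, 0.0997 and 13.5 RPKM, and Aldoa and Ldha, with shares of 13.9% and 17.1%, had the highest medians.

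Among the genes of lower glycolysis, Gapdh had 18.6, 7.27 and 123 CPM in Vmed and 9.12, 8.44 and 94.5 CPM in Vhigh. Its counts were 1155 and 1112 in the replicate 3 libraries and 62 to 155 in the other 4. Over all alignments tallied, the share aligned to several places was 48.2% and 47.5% in replicate 3, within the range of the other 4. How reads of Gapdh itself were placed was not tested. Pgam1 was also highest in replicate 3, with 4.81, 3.52 and 11.9 CPM in Vmed and 3.59, 3.08 and 11.4 CPM in Vhigh. Pgk1 had 28.6 to 37.1 CPM in Vmed and 23.4 to 49.5 CPM in Vhigh, with replicate 3 within the range of the others or lowest. Eno1, not tested, had 6, 3 and 37 counts in Vmed and 1, 2 and 36 counts in Vhigh. Eno2, the neuronal enolase, also not tested, had 7, 0 and 0 counts in Vmed and 0, 2 and 27 counts in Vhigh.

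Lactate dehydrogenase reduces pyruvate to lactate, and its A subunit is the one that hypoxia raises. Ldha had 1057, 1596 and 1430 CPM in Vmed (1361 ± 276, SD, n = 3) and 2298, 1418 and 1550 CPM in Vhigh (1755 ± 474, SD, n = 3). The top value was in Vhigh replicate 1, the lowest in Vmed replicate 1, and the 4 others were close together (log2 fold change 0.37, SE 0.43). Ldhb had 322, 68.6 and 40.4 CPM in Vmed and 146, 55.3 and 30.3 CPM in Vhigh. Ldhb was lower in Vhigh in 3 of 3 pairs, highest in both libraries of replicate 1 and lowest in both of replicate 3 (log2 fold change -0.89, SE 0.87).

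Pdha1 encodes the catalytic alpha subunit of pyruvate dehydrogenase, which sends pyruvate to acetyl-CoA, and lies on chromosome X from 160122209 to 160138413. It had 124, 195 and 89.5 CPM in Vmed (136 ± 54, SD, n = 3) and 364, 239 and 242 CPM in Vhigh (282 ± 71, SD, n = 3). All 3 Vhigh libraries lay above all 3 Vmed libraries. The log2 fold change of Pdha1 was 1.05 (SE 0.49, unadjusted p = 0.060 and adjusted p = 0.9998, quasi-likelihood test of edgeR), and the exact two-sided permutation test gave p = 0.1, the smallest it allows here. With the block its log2 fold change was 1.1004 (SE 0.34, unadjusted p = 0.022 and adjusted p = 0.987, same test). Without Vhigh replicate 1, again the top value, the log2 fold change of Pdha1 was 0.82. Map3k15, a kinase gene on the opposite strand, covers 16.1% of the Pdha1 exon bases and had 18.2 CPM in Vhigh replicate 2 and 0 to 2.46 CPM in the other 5 libraries, and whether counting used strand is not given in the sources used here. Pdk1, a kinase that switches pyruvate dehydrogenase off and is induced by hypoxia, had 11.2, 49.3 and 81.1 CPM in Vmed and 4.71, 50.04 and 188 CPM in Vhigh. Its sister kinase Pdk2 had 13.3, 1.29 and 0 CPM in Vmed and 14.0, 11.4 and 13.7 CPM in Vhigh. Pdk1 was highest in replicate 3 and lowest in replicate 1, whereas Pdk2 was even in Vhigh and uneven in Vmed. Summed over these 3 genes, Vmed had 148, 245 and 171 CPM and Vhigh 383, 300.4 and 444 CPM, without overlap. Pdha1, separated by itself, was the largest term in each library, and the sums over each other role and over all members overlapped between the fractions.

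Slc16a1 (MCT1) carries lactate in either direction and lies on chromosome 3 from 104638668 to 104658462. It had 31.001, 40.0 and 135 CPM in Vmed and 179.8, 97.9 and 232 CPM in Vhigh, higher in Vhigh in 3 of 3 pairs. Vmed replicate 3 lay above Vhigh replicate 2, so the fractions overlapped. The log2 fold change of Slc16a1 was 1.31 (SE 0.69, unadjusted p = 0.090), and 1.53 (SE 0.45, unadjusted p = 0.019 and adjusted p = 0.987) with the block, by the quasi-likelihood test of edgeR. Without Vhigh replicate 1 the log2 fold change of Slc16a1 was 1.27. Slc16a3 (MCT4), the exporter of strongly glycolytic cells, had 6.25, 11.96 and 148 CPM in Vmed and 5.02, 18.2 and 138 CPM in Vhigh. Both libraries of replicate 3 lay far above the 4 others, while the fractions were level (log2 fold change -0.04, SE 1.38).

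The 3 members listed as hypoxia targets had at most 77.8 CPM in any library. Bnip3, which promotes the removal of mitochondria, had 74.6, 43.5 and 16.8 CPM in Vmed and 77.8, 32.0 and 13.2 CPM in Vhigh, with the lowest values in replicate 3. Vegfa, the main angiogenic ligand, had 8.17, 9.15 and 4.35 CPM in Vmed and 0, 4.70 and 0.68 CPM in Vhigh (log2 fold change -2.00, SE 2.15). It was lower in Vhigh in 3 of 3 pairs and did not separate the fractions. Adm, the vasodilator adrenomedullin, was not tested and had 2, 49 and 70 counts in Vmed and 0, 0 and 8 counts in Vhigh. Bnip3, Slc16a3 and Hif1a therefore did not share an order over the 6 libraries.

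**Figure D3:**
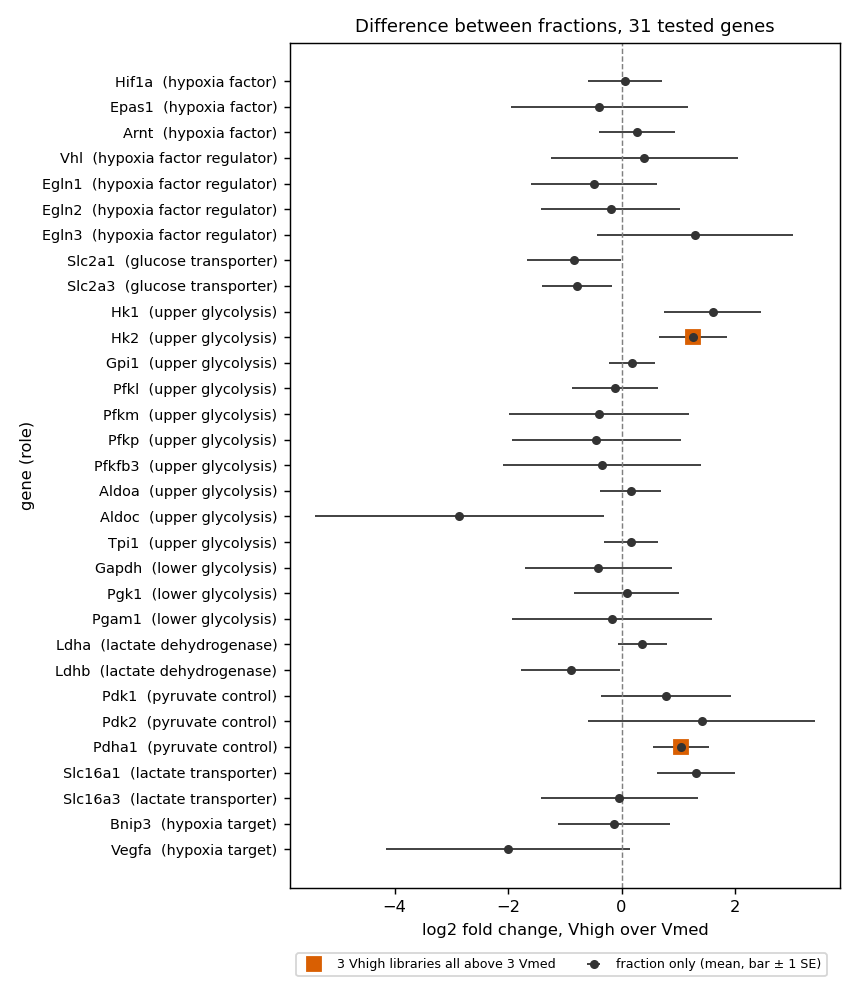
Log2 fold change, Vhigh over Vmed, with bars of 1 SE, for the 31 tested genes by role from edgeR's fit with fraction as the only term. Squares mark Hk2 and Pdha1, whose 3 Vhigh libraries lay above all 3 Vmed libraries, and the adjusted p was 0.9998 for every gene.

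Over the same-numbered pairs, 12 of the 31 tested members (38.7%) moved in 1 direction in all 3 pairs, against 32% of all tested genes. Egln3, Hk1, Hk2, Gpi1, Pdk2, Pdha1 and Slc16a1 were higher in Vhigh in 3 of 3 pairs, and Slc2a1, Pfkfb3, Pgam1, Ldhb and Vegfa were lower. With the replicate number as a block, 4 members had an unadjusted p under 0.05 (Hk2, Pdha1 and Slc16a1 higher, Slc2a1 lower), against 4.16% of all tested genes, and 0 were called after adjustment by the quasi-likelihood or the likelihood ratio test of edgeR. The likelihood ratio test with the block called 74 genes overall (0.583%). The 4 members span 4 roles, namely glucose entry, glucose phosphorylation, conversion of pyruvate to acetyl-CoA and lactate transport.

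The members were also compared by replicate number, across the fractions. Hif1a, Epas1, Egln2, Egln3, Slc2a1, Gpi1, Pfkl, Pfkfb3, Tpi1, Gapdh, Pgam1, Pdk1 and Slc16a3 were higher in both libraries of replicate 3 than in all 4 others, which is 13 of 31 members (41.9%) against 17% of all tested genes. Egln1, Aldoa, Ldhb and Bnip3 were lower in both (12.9%, against 11.2% of all tested genes). For replicate 1, 4 members were above (background 13.1%) and 7 below the other 4 libraries (18.9%), and for replicate 2, 1 was above (7.64%) and 4 below (4.34%). The number in the replicate 3 set depended on the scaling, with 9 members under RLE size factors, 10 under plain library size and 11 with Rn45s removed, against 15.2%, 15.3% and 15.5% of all tested genes. Egln2, Epas1, Gapdh, Hif1a, Pdk1, Pfkl, Pgam1 and Slc16a3 were in the set under all 4 scalings. A quasi-likelihood test of the replicate number in edgeR, chosen after seeing the data, gave 0 members after adjustment and 9 at an unadjusted p under 0.05 (Hif1a, Slc2a1, Pfkl, Aldoa, Tpi1, Gapdh, Ldhb, Pdk1 and Slc16a3), against 12.4% of all tested genes and 0 genes after adjustment. The smallest unadjusted p among them was 0.0011 for Slc2a1, with an adjusted p = 0.162. The shares of Rn45s and of alignments outside features given above differed for the same 2 libraries, and their part in these levels was not tested beyond the removal of Rn45s.

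**Figure D4:**
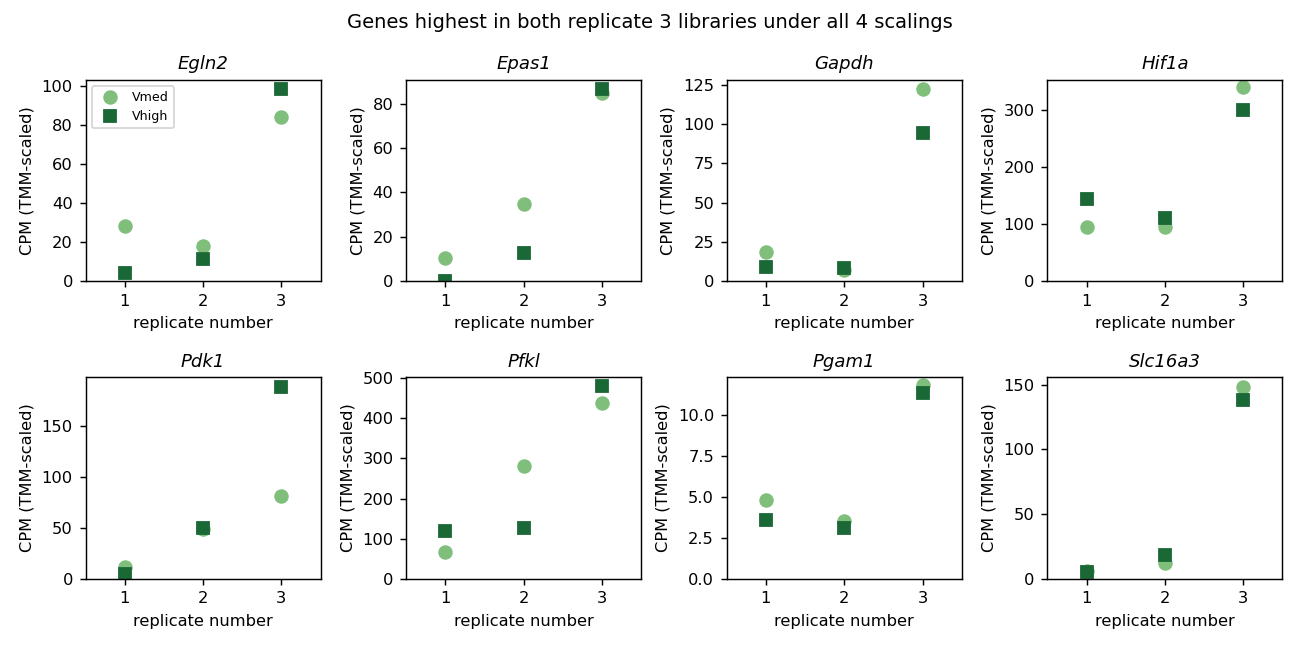
TMM-scaled CPM of the 8 genes that were highest in both replicate 3 libraries under all 4 scalings, by replicate number, with a circle for each Vmed and a square for each Vhigh library and each vertical axis starting at 0. In each panel both points at replicate 3 lie above the 4 other points, for example 340 and 299 CPM against 94.4 to 143 CPM for Hif1a.

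Shares within a family of paralogs do not depend on the scaling of a library, and they were computed from counts per exon length. Hif1a made up 80.3% ± 8.8 (SD, n = 3) of Hif1a plus Epas1 in Vmed and 88.6% ± 11.7 (SD, n = 3) in Vhigh. Slc2a1 made up 90.8% and 87.5% of the 2 glucose transporters in replicate 3 of Vmed and Vhigh, and 43.5% to 65.1% in the other 4 libraries. Egln2 made up 70.9% and 75.6% of the 3 hydroxylases in replicate 3, against 8.404% to 47.7% in the others, and Egln1 12.9% and 3.76%, against 49.7% to 59.2%. Slc16a1 made up 52.2% and 66.9% of the lactate transporters in replicate 3 and 80.1% to 97.7% in the others. Hk2 made up 50.7% and 42.2% of the hexokinases in replicate 3 and 66.2% to 91.3% in the others. The fractions overlapped in all 14 shares, including Ldha of the lactate dehydrogenases with 82.3% ± 18.6 (SD, n = 3) in Vmed and 92.2% ± 3.9 (SD, n = 3) in Vhigh.

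**Figure D5:**
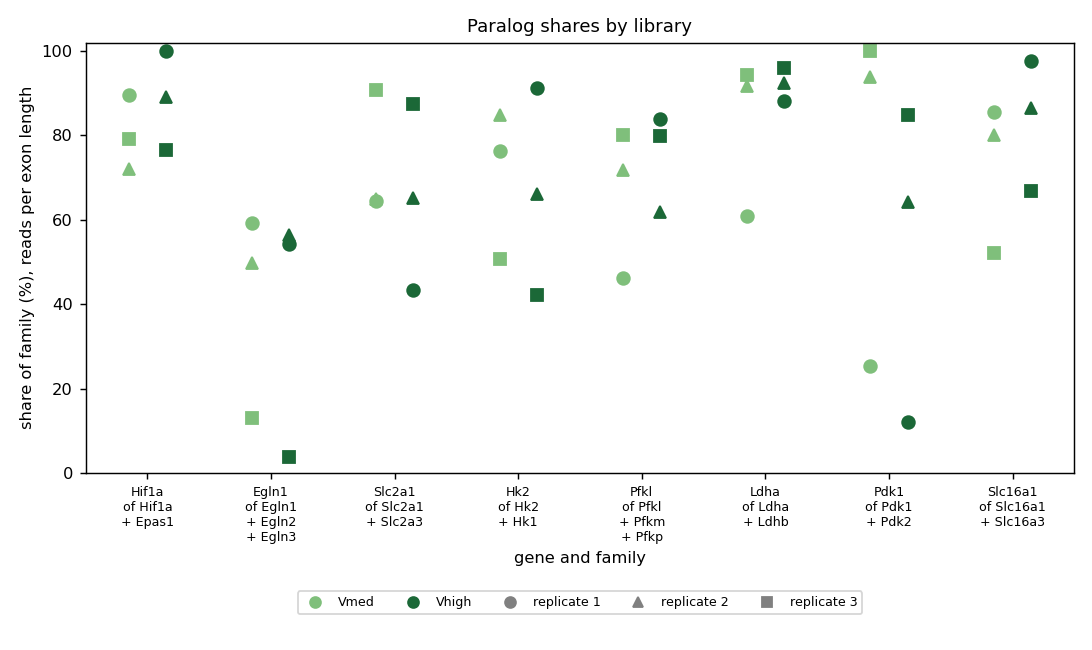
Share of 1 gene in its family (%, from counts per exon length) in each library, with Vmed in light and Vhigh in dark green and the marker shape giving the replicate number. The squares of replicate 3 lie above the other libraries for Slc2a1 (87.5% and 90.8%) and below them for Egln1, Hk2 and Slc16a1.

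Hypoxia-inducible factors bind a short core in the promoters of their targets, and the 250 bases before the start of transcription in RefSeq (GRCm38.p6) were searched for ACGTG and GCGTG on both strands. The table had 47 such windows for 32 of the 34 members, with no entry for Epas1 and Slc2a3. At least 1 of these cores was present in 37 of the 47 windows (78.7%), against 38.6% of all 32851 windows. For ACGTG alone, which on both strands lies in each CACGTG, the shares were 42.6% and 16.6%, and for CACGTG 14.9% and 6.02%. Windows of a gene can overlap, the members were chosen as known targets among others, and a match is a description of the letters and no sign of binding. Promoter windows of Hk2, Pdha1, Slc16a1 and Slc2a1 are shown because these were the members with an unadjusted p under 0.05 with the block, and capitals mark the cores on either strand.
Hk2, chr6:82774455-82774704, minus strand: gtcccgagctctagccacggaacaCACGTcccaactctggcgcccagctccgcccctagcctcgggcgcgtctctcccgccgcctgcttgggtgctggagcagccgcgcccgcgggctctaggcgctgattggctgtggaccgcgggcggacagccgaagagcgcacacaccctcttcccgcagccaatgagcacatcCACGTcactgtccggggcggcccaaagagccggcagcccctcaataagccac
Pdha1, chrX:160138431-160138680, minus strand: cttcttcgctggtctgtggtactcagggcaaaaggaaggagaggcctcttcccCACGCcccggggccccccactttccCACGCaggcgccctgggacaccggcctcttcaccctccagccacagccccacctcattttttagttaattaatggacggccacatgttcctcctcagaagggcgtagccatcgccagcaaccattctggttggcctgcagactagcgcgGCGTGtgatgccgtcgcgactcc
Slc16a1, chr3:104638414-104638663, plus strand: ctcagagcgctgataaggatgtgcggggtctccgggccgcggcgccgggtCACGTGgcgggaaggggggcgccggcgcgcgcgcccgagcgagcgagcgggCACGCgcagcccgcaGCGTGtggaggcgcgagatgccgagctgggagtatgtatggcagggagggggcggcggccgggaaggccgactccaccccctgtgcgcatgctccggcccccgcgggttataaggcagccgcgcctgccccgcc
Slc2a1, chr4:119108495-119108744, plus strand: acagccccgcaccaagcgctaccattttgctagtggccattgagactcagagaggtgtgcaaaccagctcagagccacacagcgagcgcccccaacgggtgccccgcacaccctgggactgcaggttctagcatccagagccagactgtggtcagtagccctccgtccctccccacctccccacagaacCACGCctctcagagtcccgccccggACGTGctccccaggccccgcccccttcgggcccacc

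Hk2 held 2 ACGTG cores and no GCGTG core, Pdha1 no ACGTG and 3 GCGTG, Slc16a1 2 and 2, where the first 2 share 1 CACGTG, and Slc2a1 1 and 1. Each of these 4 windows held a core, as did 78.7% of all member windows. Vhl, Gpi1, Tpi1 and Eno2 held neither core in theirs.

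Of 60 further genes of the same pathways, written down as a list of the other glycolytic, pentose phosphate, pyruvate and hypoxia genes, all 60 were in the files and 52 were tested. The quasi-likelihood test of edgeR called 0 of the 52 (background 0%), and 0 higher and 2 lower genes had an unadjusted p under 0.05, against 0.867% and 1.17% of all tested genes. P4ha2, a prolyl hydroxylase of collagen that hypoxia induces, had 153, 248 and 100.4 CPM in Vmed and 44.7, 25.4 and 6.63 CPM in Vhigh. Its fractions did not overlap (log2 fold change -2.71, SE 0.75, unadjusted p = 0.0066 and adjusted p = 0.9998, quasi-likelihood test of edgeR), and the likelihood ratio test of edgeR with the block gave it an adjusted p = 0.016. Without Vhigh replicate 1 the log2 fold change of P4ha2 was -3.38. Hmox1, heme oxygenase, which was named after its values were seen, had 92.4, 313 and 335 CPM in Vmed and 119, 15.2 and 18.3 CPM in Vhigh. Vhigh replicate 1 lay inside the Vmed range. In the pentose phosphate pathway, which branches from glucose 6-phosphate, G6pdx had 182.6, 119 and 93.4 CPM in Vmed and 19.9, 55.9 and 67.6 CPM in Vhigh. Tkt, the transketolase of the same pathway, had 316, 260.0 and 487 CPM in Vmed and 534, 582 and 613 CPM in Vhigh. The fractions did not overlap for either gene, and the directions were opposite (log2 fold changes -1.46, SE 0.66, and 0.70, SE 0.43). The gene counted as Pgm1, a phosphoglucomutase, was also separated, with 99.3 to 144 CPM in Vmed and 59.3 to 97.0 CPM in Vhigh. The annotation behind this symbol is not given in the sources used here. These 4 genes are 7.69% of the 52, against 8.94% of all tested genes.

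Markers of other cell types differed between the fractions beside these genes. The summed level of 8 mesenchyme markers, collagens among them, ranged from 1652 to 4516 CPM in Vmed and from 191 to 581 CPM in Vhigh, with Twist1 at 0 in 2 libraries. The sum of 10 macrophage markers ranged from 996 to 1846 CPM in Vmed and from 125 to 553 CPM in Vhigh, with Emr1 at 0 in Vhigh replicates 1 and 2 and C1qa in Vhigh replicate 1. The sum of 8 hematopoietic stem and progenitor markers ranged from 425 to 1127 CPM in Vmed and from 1280 to 3687 CPM in Vhigh, in the same direction as Hk2 and Pdha1. The sums of 8 endothelial and 10 erythroid markers overlapped between the fractions, with the 4 adult globin genes listed at 0 in all 6 libraries. The globin genes were not compared with other loci as the members were, so a 0 does not show that their RNA was absent. Megakaryocyte markers (8 genes, 434 to 921 CPM in Vmed and 342 to 429 CPM in Vhigh) and epithelial markers (6 genes, 153 to 269.8 and 91.6 to 122 CPM) were lower in each Vhigh library. The sorting markers Pecam1 and Kit were detected in each library. The part of these cell types in P4ha2, Hmox1, Hk2 and Pdha1 was not tested.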

How the data were processed

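RNA of sorted CD31+ckit+Vmed and CD31+ckit+Vhigh cells (3 libraries each, mirVana and SMARTer kits, single reads of 50 bases) was analysed. Per the labels and the methods, the authors aligned reads to GRCm38/mm10 with TopHat and Bowtie 1.1.2, counted them with HTSeq and deposited the counts for each gene as they were, not normalized. The annotation and strand setting are not given in the sources used here. Lines for unassigned alignments were left out of library sizes. Genes were kept by filterByExpr (12688 of 24062), scaled by TMM and tested with the quasi-likelihood test of edgeR 4.0.16 (R 4.3.3), fraction as the only term, Benjamini-Hochberg at 0.05. Alternatives were RLE and library-size scaling, no filter, the likelihood ratio test, DESeq2 1.42.0, the replicate number as a block, and each library left out in turn. Single genes had an exact permutation test on log2 CPM (prior count 2) over 20 arrangements. RPKM used GENCODE exon unions of GRCm38 (22758 symbols matched directly, 916 through older symbols, 388 unmatched). Windows of 50 bases were aligned with bwa 0.7.19-r1273. The test was also run on simulated counts. The outcome is not reported here, so the share of true changes that the test finds at the spread of these libraries is not stated.

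Same-numbered libraries of the 2 fractions deviated together from their fraction means (r = 0.21, 0.21 and 0.39 over tested genes, against -0.29 to -0.01 for different numbers), so the numbers were taken to pair the libraries. Deviations within a fraction sum to 0, so the negative values follow in part from the positive ones and are no separate evidence. The labels give the numbers without saying what they stand for, so the pairing rests on these correlations. No library repeated another (chi-square per degree of freedom of 93.7 or more for each pair). Depth was 8296831 to 12035206 gene counts per library, and limits at 0 counts cover counting error only, since reads carry no molecular identifiers. CPM here use TMM factors. Values from plain gene totals are the library-size alternative. The 34 members and the other lists were chosen with earlier results of these data known. All members are given with values. Genes of the further list were named where the main test called them, otherwise up to 6 whose fractions did not overlap, by absolute log2 fold change, and Hmox1 and Pkm were named in addition.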

Additional observations from a re-analysis of the deposited data

How the results depend on the processing

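No member was called under any alternative run. Over all genes the quasi-likelihood test called 0, against 37 without the filter, 21 with the likelihood ratio test, 51 with DESeq2 and 74 with the replicate block and likelihood ratio test, and 0 to 1 with libraries left out (1 without Vhigh replicate 1). The replicate block with the likelihood ratio test called 1 gene of the further list, P4ha2, and the block changed no other call among members or listed genes. With the block the log2 fold changes turned for Vhl (-0.51, and -0.52 in the likelihood ratio test), Pfkp (0.49 and 0.50) and Slc16a3 (0.065 and 0.066). The cause was not tested. Members with separate fractions numbered 2 to 3 under other scalings (Pdk2 added by library size) and 4 (without Vmed replicate 2 or Vhigh replicate 1) to 10 (without both replicate 3 libraries) with fewer libraries, where 15.6% to 28.4% of all tested genes were separate too. Hk2 and Pdha1 were in each of these sets, and their log2 fold changes with libraries left out lay between 0.85 and 1.59 and between 0.82 and 1.39. The replicate 3 set held 10 to 16 members when a library of replicate 1 or 2 was left out. With fewer libraries to compare against, any gene lies above all others more easily. These counts are therefore not read as a result about the members.

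With libraries left out, the log2 fold change changed sign for 19 members, with lowest and highest values of -0.41 and 0.96 for Hif1a, -2.67 and 0.56 for Epas1, -0.20 and 0.99 for Vhl, -0.90 and 0.093 for Egln1, -2.41 and 0.71 for Egln2, -1.12 and 0.22 for Slc2a3, -1.01 and 0.49 for Pfkl, -1.27 and 0.19 for Pfkm, -1.02 and 0.29 for Pfkp and -0.90 and 0.39 for Pfkfb3. They were -0.27 and 0.52 for Aldoa, -0.058 and 0.45 for Tpi1, -2.41 and 1.52 for Gapdh, -0.28 and 0.35 for Pgk1, -0.95 and 0.53 for Pgam1, -1.75 and 0.51 for Ldhb, -0.70 and 1.43 for Pdk1, -2.17 and 2.57 for Slc16a3 and -0.9966 and 0.45 for Bnip3. The spread between the 3 libraries of a fraction limits what can be shown, with a median SE of 0.98 on the log2 scale over the tested members. A p that misses the threshold does not show that levels were equal.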
